A study of Mus musculus with 2 samples.

Results

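The genes described here encode the machinery that brings proteins into mitochondria: the translocases of the outer membrane (TOM) and inner membrane (TIM), the sorting and assembly machinery (SAM), the import motor, the disulfide relay of the intermembrane space and the peptidases that trim imported precursors. They were chosen by gene symbol, as every Timm or Tomm name followed by a digit together with Samm50, Mtx1, Mtx2, Chchd4, Gfer, Pam16, Romo1, Pmpca, Pmpcb, Immp1l, Immp2l and Mipep, with a mean of at least 1 FPKM (fragments per kilobase of transcript and per unit of library depth). The rule gave 35 of the 14339 named genes in the table, and all 35 passed the level filter, as did 11087 genes in all. Of the 35, 34 encode proteins. The last, Tomm6os, is a noncoding RNA from the strand opposite Tomm6 and was chosen only because its name begins with Tomm6. It was also the member nearest the filter, with a mean of 2.28 FPKM, and no import gene with a row lay below the filter. Genes without a row, such as Tomm20l, whose name fits the rule, are not covered.

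The RNA came from primary hepatocytes of the mouse, the main cells of the liver, isolated and cultured. Each of 2 libraries was made from cells given a small interfering RNA with the lipid reagent Lipofectamine, directed either at green fluorescent protein (GFP siRNA, the control) or at ClpP (ClpP siRNA), the proteolytic subunit of the ClpXP protease of the mitochondrial matrix. Strain, age and sex of the animals, pooling, siRNA dose and time after transfection are not given in the sources used here. There was 1 library per group, so no difference below has a replicate check, a test, a p-value or a standard error.

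Nearly all mitochondrial proteins are encoded in the nucleus and made in the cytosol. Precursors enter through the TOM complex, and from there the SAM complex places beta-barrel proteins in the outer membrane, the TIM23 complex and its motor draw presequence-bearing proteins into the matrix, and the TIM22 complex inserts carrier proteins into the inner membrane. Hepatocytes are rich in mitochondria, and matrix enzymes of the urea cycle and of fatty acid oxidation reach them by this route.

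Clpp itself stood at 45.1 FPKM under GFP siRNA and 9.32 under ClpP siRNA, a log2 ratio of -2.16. Here a log2 ratio is log2(FPKM + 1) in the ClpP siRNA library less the same value in the GFP siRNA library. The FPKM totals of named genes were 532302 and 535135, and read depth is unknown. All 7 hepatocyte markers passed the filter and summed to 3308 FPKM under GFP siRNA and 7133 under ClpP siRNA, most of it albumin. The median log2 ratio of the 7 was 1.08, but Apob (68.8 and 54.9 FPKM) and Asgr1 (6.91 and 4.19) were lower. Of 11 macrophage symbols 6 passed, with sums of 38.2 and 232 FPKM. That rise in the sum is Cd68 alone (24.9 and 226 FPKM): the other 5 were lower, and the median log2 ratio of the 6 was -0.67. Sinusoidal endothelial markers (6 of 9) summed to 26.8 and 14.7 FPKM, with Oit3 higher (3.32 and 4.43). Stellate cell and fibroblast markers (4 of 7) summed to 33.9 and 15.4 FPKM. That sum is mostly Acta2 (26.5 and 9.47 FPKM). Col3a1 was also lower (1.97 and 0.54), while Col1a1 (2.69 and 2.72) and Dcn (2.69 and 2.68) were nearly equal. Cholangiocyte markers (4 of 5) summed to 1629 and 937 FPKM. The cholangiocyte sum is mostly Spp1 (1605 and 870.0 FPKM), while the other 3 were higher, Krt19 at 9.58 and 50.2 FPKM, and the median of the 4 was 0.14. None of 6 lymphocyte markers had a row. The part of these shifts in the import values was not tested, and fewer cells of a type cannot be told apart from less RNA per cell.

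The import genes differed little between the libraries, with a single exception past 2-fold. Timm21, a TIM23 subunit, was lower under ClpP siRNA, and Tomm40, the pore of the TOM complex, was the only other member past 1.5-fold on this log2(FPKM + 1) scale. Without the added 1, the ratio of FPKM (ClpP siRNA over GFP siRNA) also passed 1.5-fold for Timm17b (0.654) and Timm22 (1.54). The share of all genes was not computed for that ratio. With 0.1 added in place of 1, 3 members were lower and 1 higher past 1.5-fold, beside 992 and 1309 of all 11087 genes. With 1 added, 1 of 35 members was at least 2-fold lower and 0 were at least 2-fold higher. Of all 11087 genes 2.04% and 5.19% were, 7.22% in both directions together. At 1.5-fold, a log2 ratio of 0.58 in size, 2 members were lower and 0 higher, against 6.79% and 9.97% of all genes. Past 1.5-fold in either direction were 5.71% of members and 16.8% of all genes. The median log2 ratio was -0.02 for the members and -0.01 for all genes, and 19 members lay below 0, 54.3% of them against 50.7% of all genes. Their summed FPKM was 1443 under GFP siRNA and 1401 under ClpP siRNA.

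**Figure D1:**
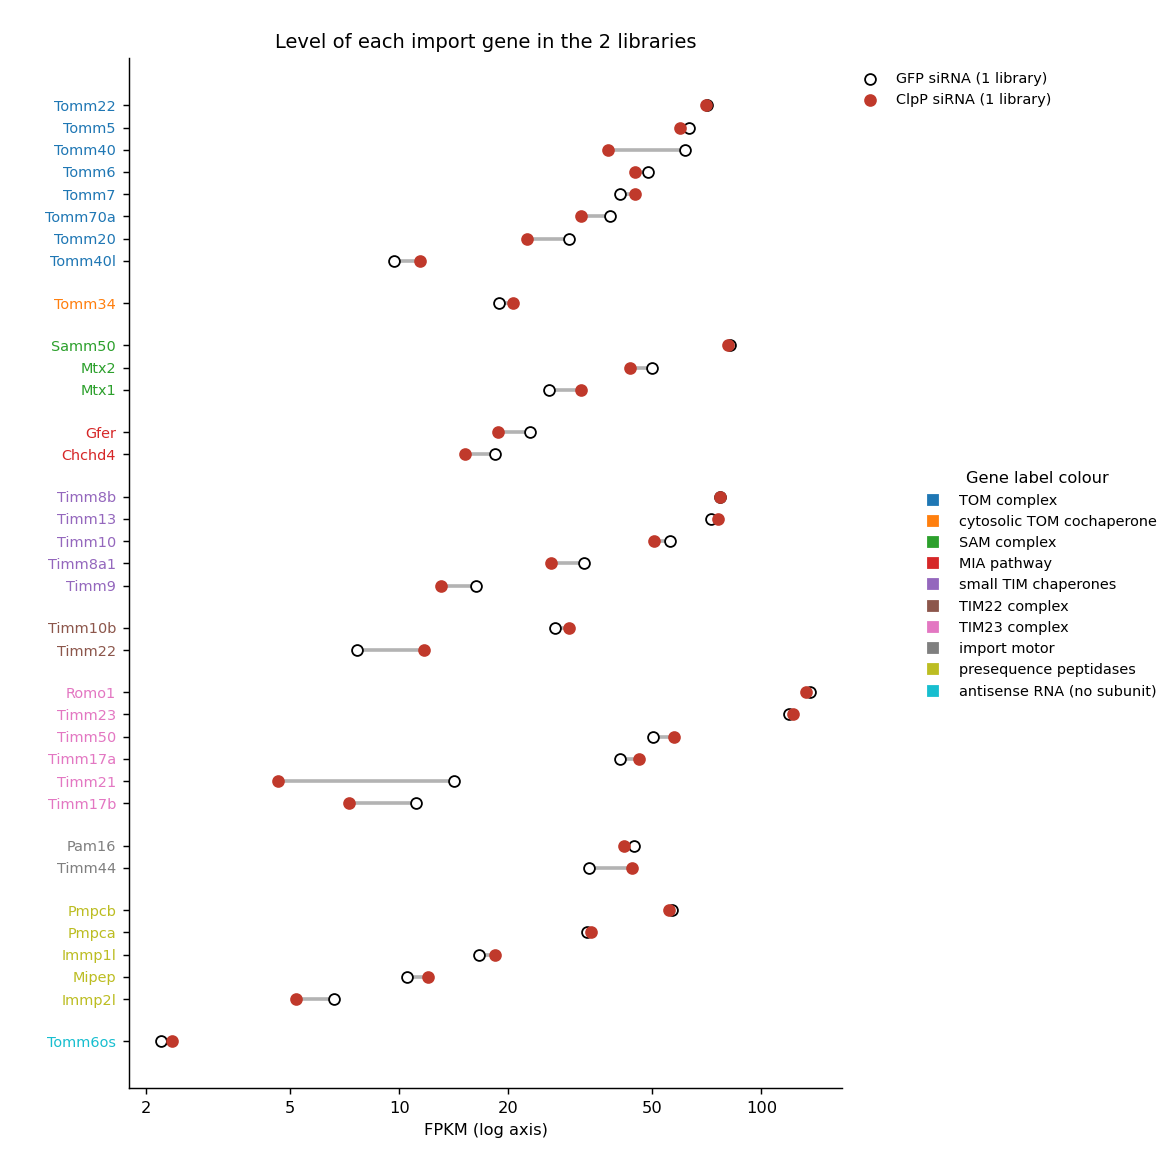
FPKM of each of the 35 import genes on a log axis, grouped by complex, with an open circle for the GFP siRNA library and a filled circle for the ClpP siRNA library, 1 library each. The circles lie close together for most genes and farthest apart for Timm21 (14.1 and 4.62 FPKM).

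Tomm40, Tomm20 and Tomm70a had the lowest log2 ratios of the 8 TOM genes, and Tomm22 had nearly equal levels in both libraries. The promoters of these 4 genes are printed, chosen for these log2 ratios. Each runs 5′ to 3′ over 300 bases, from 250 before the annotated start to 50 after it, as given by RefSeq on GRCm38.p6. Tomm40 lies at chr7:19715380-19715679 on the minus strand, Tomm20 at chr8:126945872-126946171 on the minus strand, Tomm70a at chr16:57121464-57121763 on the plus strand and Tomm22 at chr15:79670618-79670917 on the plus strand. Capitals mark, on either strand, CGCANGCG (the core of the motif of NRF1, a regulator of nuclear genes for mitochondria), CCGGAAG (the core of ETS factors such as GABP), AAGATGGC (YY1) and CCAAT (NF-Y).
Tomm40: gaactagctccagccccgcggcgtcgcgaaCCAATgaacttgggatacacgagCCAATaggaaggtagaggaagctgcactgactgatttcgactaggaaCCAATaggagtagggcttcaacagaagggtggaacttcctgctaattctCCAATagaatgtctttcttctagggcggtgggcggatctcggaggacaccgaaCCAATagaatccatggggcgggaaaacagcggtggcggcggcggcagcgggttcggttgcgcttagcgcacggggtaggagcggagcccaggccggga
Tomm20: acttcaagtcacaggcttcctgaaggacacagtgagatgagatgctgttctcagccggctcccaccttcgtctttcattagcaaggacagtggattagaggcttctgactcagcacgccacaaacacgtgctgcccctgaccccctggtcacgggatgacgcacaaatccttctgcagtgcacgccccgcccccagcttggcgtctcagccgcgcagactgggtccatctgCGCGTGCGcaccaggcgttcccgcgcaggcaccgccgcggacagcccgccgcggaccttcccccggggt
Tomm70a: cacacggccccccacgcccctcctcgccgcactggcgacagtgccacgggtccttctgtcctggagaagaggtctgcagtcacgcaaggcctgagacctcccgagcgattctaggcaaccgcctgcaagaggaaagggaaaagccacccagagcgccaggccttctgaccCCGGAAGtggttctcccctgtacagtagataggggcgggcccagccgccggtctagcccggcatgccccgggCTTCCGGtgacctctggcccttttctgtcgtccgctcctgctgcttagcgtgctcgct
Tomm22: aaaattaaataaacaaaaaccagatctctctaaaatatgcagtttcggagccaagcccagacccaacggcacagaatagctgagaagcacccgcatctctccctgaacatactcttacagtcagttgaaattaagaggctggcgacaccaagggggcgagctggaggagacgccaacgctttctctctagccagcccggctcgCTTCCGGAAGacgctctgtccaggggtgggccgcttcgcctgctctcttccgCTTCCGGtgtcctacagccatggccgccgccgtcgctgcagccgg

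The Tomm40 window held the letters CCAAT 5 times and none of the other 3 motifs. At least as many CCAAT were found in 0.509% of 11387 promoters of genes passing the filter, and no other import promoter had 5. Gene and motif were both picked after values were seen, and a link of CCAAT to the level of Tomm40 was not tested. The Tomm20 window held 1 NRF1 core, the Tomm70a window 2 ETS motifs and the Tomm22 window 3, of which 2 overlap as a palindrome. Promoters were found for 32 of the 35 members, and Timm21, Tomm7 and Tomm40l had none in the table used. The ETS motif was present for 12 of the 32 genes (37.5%) against 21.5% of 8930 genes passing the filter. The NRF1 core was present for 7 (21.9% against 20.2%), namely Chchd4, Pam16, Romo1, Timm13, Timm50, Timm8b and Tomm20. The YY1 motif was present for 3 (9.38% against 5.61%), Immp1l, Mtx1 and Timm50, and CCAAT for 10 (31.3% against 43.3%). Matches of different motifs overlapped in 0 of the 34 member promoters, and a match is a description of the sequence, not a binding site. Members with and without the ETS motif had median log2 ratios of 0.00 and -0.09, those with and without CCAAT 0.06 and -0.03, and those with and without the YY1 motif 0.19 and -0.03. The 10 members with CCAAT ran from -0.69 (Tomm40) to 0.38, with 5 below 0. The 7 members with the NRF1 core ran from -0.37 to 0.19, and the other 25 from -0.69 to 0.56.

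Precursors first meet the receptors and the pore of the TOM complex, and 6 of its 8 genes had log2 ratios below 0, with a median of -0.10 and a summed FPKM of 362 under GFP siRNA and 323 under ClpP siRNA. Tomm40, the beta-barrel pore, went from 61.7 FPKM under GFP siRNA to 37.7 under ClpP siRNA, a log2 ratio of -0.69. It ranked 8 by level among the members in the first library and 17 in the second, the largest shift of rank. Its neighbours in level scattered less: the 16th and 84th percentiles of the log2 ratios of the 500 genes nearest in mean FPKM, called the local spread here, were -0.30 and 0.42. Tomm20, the receptor for presequences, stood at 29.4 and 22.6 FPKM (log2 ratio -0.37, local spread -0.30 to 0.37). Tomm70a, the receptor for carrier precursors handed over by cytosolic chaperones, stood at 38.2 and 31.7 FPKM (-0.26), inside its local spread.

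The other TOM genes were closer to equal. Tomm22, the central receptor that joins the pores, had 70.9 and 70.3 FPKM (log2 ratio -0.01). The small subunits that steady the complex had 63.2 and 59.7 FPKM for Tomm5 (-0.08), 48.6 and 44.8 for Tomm6 (-0.11), and 40.6 and 44.8 for Tomm7 (0.14). Tomm40l, a paralog of Tomm40, was the least abundant TOM gene at 9.68 and 11.4 FPKM (0.22). Tomm40 therefore made up 86.4% of the summed FPKM of Tomm40 and Tomm40l under GFP siRNA and 76.7% under ClpP siRNA. Tomm34, a cytosolic cochaperone that binds precursors, had 18.8 and 20.6 FPKM (0.13). Tomm6os had 2.20 and 2.36 FPKM (0.07).

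In the SAM complex, Samm50, the beta-barrel core that inserts other barrels, ranked 3 by level among the members, with 82.0 FPKM under GFP siRNA and 81.1 under ClpP siRNA (log2 ratio -0.02). The metaxins on its cytosolic face went opposite ways. Mtx1 had 25.9 and 31.7 FPKM (0.28) and Mtx2 49.8 and 43.4 (-0.19), so that Mtx1 made up 34.3% of the pair in the first library and 42.2% in the second. Both lay inside their local spread.

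The disulfide relay was slightly lower under ClpP siRNA in both of its genes. Chchd4 (Mia40), the oxidoreductase that traps cysteine-rich precursors in the intermembrane space, had 18.3 FPKM under GFP siRNA and 15.1 under ClpP siRNA (log2 ratio -0.26). Gfer, the sulfhydryl oxidase that reoxidizes it, had 22.9 and 18.7 FPKM (-0.28). Both were inside their local spread and below 0 under every scaling, pseudocount and filter tried. A further 16 genes were listed as encoding substrates of this relay. Of these, 0 were past 2-fold, near the share of all genes (7.22%) for so short a list, and the median log2 ratio was -0.06. The largest in size were Chchd10 (138 and 76.8 FPKM, -0.84) and Cmc1 (11.8 and 7.24 FPKM, -0.63).

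The small TIM proteins chaperone hydrophobic precursors across the intermembrane space as mixed hexamers, Timm9 with Timm10 and Timm8 with Timm13. Within the first, Timm10 had 55.8 FPKM under GFP siRNA and 50.6 under ClpP siRNA (log2 ratio -0.14), and Timm9 had 16.3 and 13.0 FPKM (-0.30). Of the second, Timm13 had 72.5 and 75.9 FPKM (0.07) and Timm8b 76.8 and 77.0 (0.00), and the sign of both changed under at least 1 scaling. Timm8a1, the paralog of Timm8b whose human counterpart is lost in a deafness and dystonia syndrome, had 32.4 and 26.2 FPKM (-0.30), just below its local spread of -0.30 to 0.36. It made up 29.7% and 25.3% of the summed FPKM of Timm8a1 and Timm8b.

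The TIM22 complex held the highest log2 ratio of all members. Timm22, its channel, had 7.63 FPKM under GFP siRNA and 11.7 under ClpP siRNA, a log2 ratio of 0.56, and was the only member above its local spread (-0.39 to 0.32). The added 1 put it just short of 1.5-fold: the ratio of its FPKM values is 1.54, and with a pseudocount of 0.1 its log2 ratio was 0.61. Timm10b, the small TIM protein bound to the channel, had 27.0 and 29.5 FPKM (0.12). Agk, a lipid kinase that is a further subunit and lies outside the naming rule, had 7.88 and 5.53 FPKM (-0.44), so the genes of this complex did not share a direction.

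The TIM23 complex contained the most abundant import genes and Timm21, the member with the largest log2 ratio in size. Next in size were Tomm40 and Timm22, of the TOM and TIM22 complexes. Romo1, the counterpart of yeast Mgr2 at the edge of the channel, had 136 FPKM under GFP siRNA and 133 under ClpP siRNA (log2 ratio -0.03). Timm23, the channel-forming core, had 119 and 122 FPKM (0.04), with a sign that turned in some scalings. These were first and second in level in both libraries. Timm50, the receptor that takes over precursors from TOM, had 50.1 and 57.3 FPKM (0.19).

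Timm21, which tethers TIM23 to the TOM complex and to the respiratory chain, stood at 14.1 FPKM under GFP siRNA and 4.62 under ClpP siRNA. Its log2 ratio of -1.43 lay outside its local spread (-0.38 to 0.32), and in the authors' deposited table its signed fold change is -2.77. The ratio ran from -1.59 to -0.99 over the settings tried, and only a pseudocount of 5 put it short of 2-fold. It went from rank 29 to rank 34 by level among the 35 members. The complex as a whole had a median log2 ratio of 0.00 over 6 genes, and its summed FPKM was 371 in both libraries.

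Timm17a and Timm17b are alternative subunits that pair with Timm23. Timm17a had 40.7 FPKM under GFP siRNA and 45.9 under ClpP siRNA (log2 ratio 0.17). Timm17b had 11.1 and 7.26 FPKM, a log2 ratio of -0.55, below its local spread of -0.35 to 0.35 and past 1.5-fold in 3 of the 9 settings. The pair kept nearly the same sum, 51.8 and 53.2 FPKM, while Timm17a made up 78.6% of it in the first library and 86.4% in the second.

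**Figure D2:**
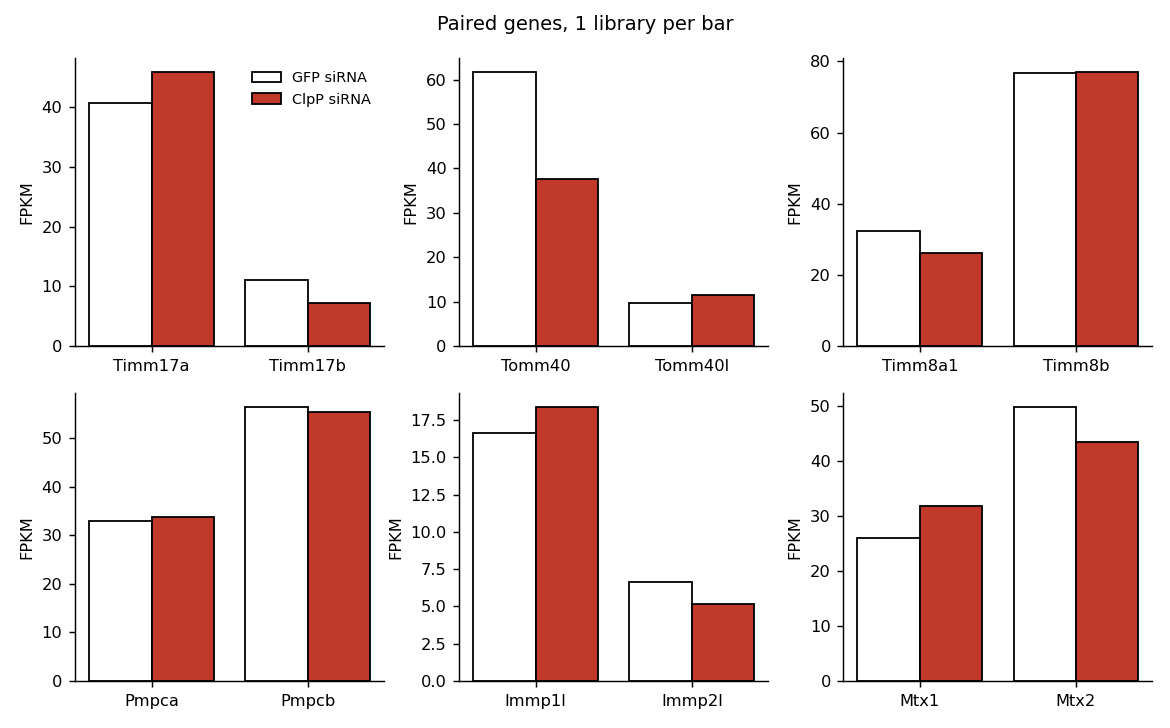
FPKM of 6 pairs of import genes, with an open bar for the GFP siRNA library and a filled bar for the ClpP siRNA library, 1 library per bar and no error bars. The abundant member is lower under ClpP siRNA in the Tomm40 pair, and the scarce member is lower in the Timm17 pair (Timm17b, 11.1 and 7.26 FPKM).

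The import motor pulls precursors into the matrix with the chaperone Hspa9 (mtHsp70). Timm44, which anchors that chaperone at the channel, had 33.5 FPKM under GFP siRNA and 43.8 under ClpP siRNA (log2 ratio 0.38), the second highest of the members and inside its local spread of -0.27 to 0.45. Pam16, which restrains the J protein of the motor, had 44.5 and 41.7 FPKM (-0.09). The partners outside the naming rule were Hspa9 at 285 and 230 FPKM (-0.31), its nucleotide exchange factor Grpel1 at 26.2 and 31.4 (0.25) and the J protein Dnajc19 at 36.5 and 36.1 (-0.02).

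The peptidases that cut presequences had log2 ratios from -0.30 to 0.18, all inside their local spread. Pmpca and Pmpcb, the subunits of the matrix processing peptidase, had 33.0 and 33.8 FPKM (log2 ratio 0.03, with a sign that turned under some scalings) and 56.5 and 55.4 FPKM (-0.03). Their proportion was almost constant, with Pmpca at 36.9% and 37.9% of the pair. Mipep, which removes further residues after the first cut, had 10.5 and 12.0 FPKM (0.18). Immp1l and Immp2l, subunits of the inner membrane peptidase, had 16.6 and 18.4 FPKM (0.14) and 6.61 and 5.18 FPKM (-0.30), so Immp1l made up 71.6% and 78.0% of that pair.

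**Figure D3:**
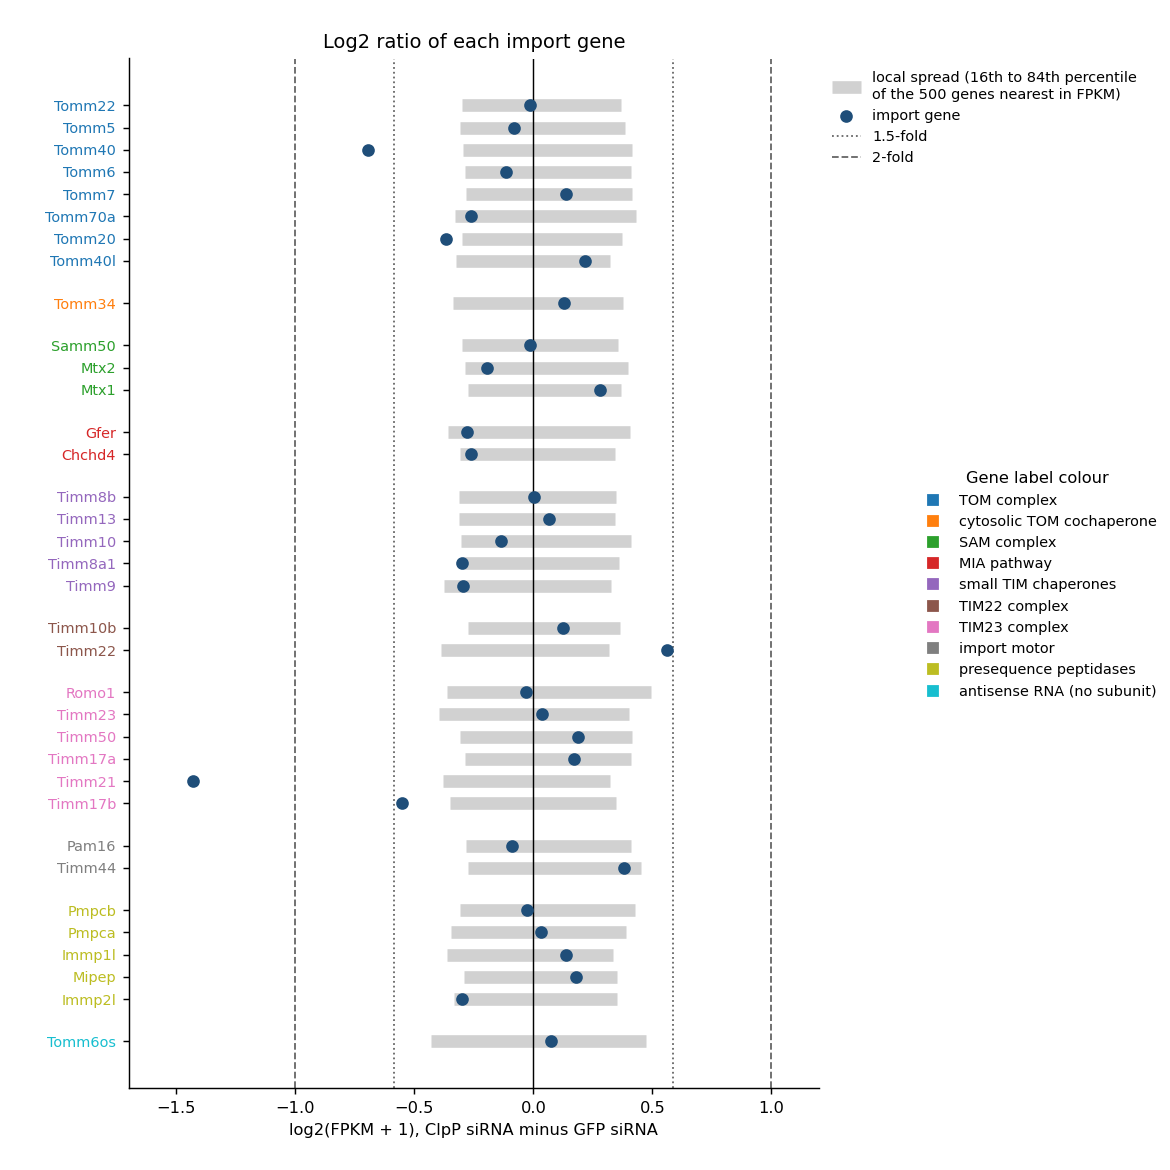
Log2 ratio of each import gene (point, ClpP siRNA minus GFP siRNA) beside its local spread (grey bar, 16th to 84th percentile of the log2 ratios of the 500 genes nearest in mean FPKM), with lines at 1.5-fold and 2-fold. Points leave the bar to the left for Timm21, Tomm40, Timm17b, Tomm20 and, barely, Timm8a1, and to the right for Timm22.

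Across complexes, 5 members lay below their local spread and 1 above it, 14.3% and 2.86% of 35, beside 16.3% and 16.1% of all genes. Of these 6, Timm21, Timm17b and Timm22 were scarce, with mean levels of 9.38, 9.18 and 9.68 FPKM, at percentiles 43.3, 42.8 and 44.3 of the levels of all genes. Tomm40 was at percentile 85.2, Timm8a1 at 75.3 and Tomm20 at 72.3, and 28 of the 35 members were above the median level. The 6 members with the highest level in the GFP siRNA library (Romo1, Timm23, Samm50, Timm8b, Timm13 and Tomm22) kept their order in the ClpP siRNA library, and their log2 ratios ran from -0.03 to 0.07.

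**Figure D4:**
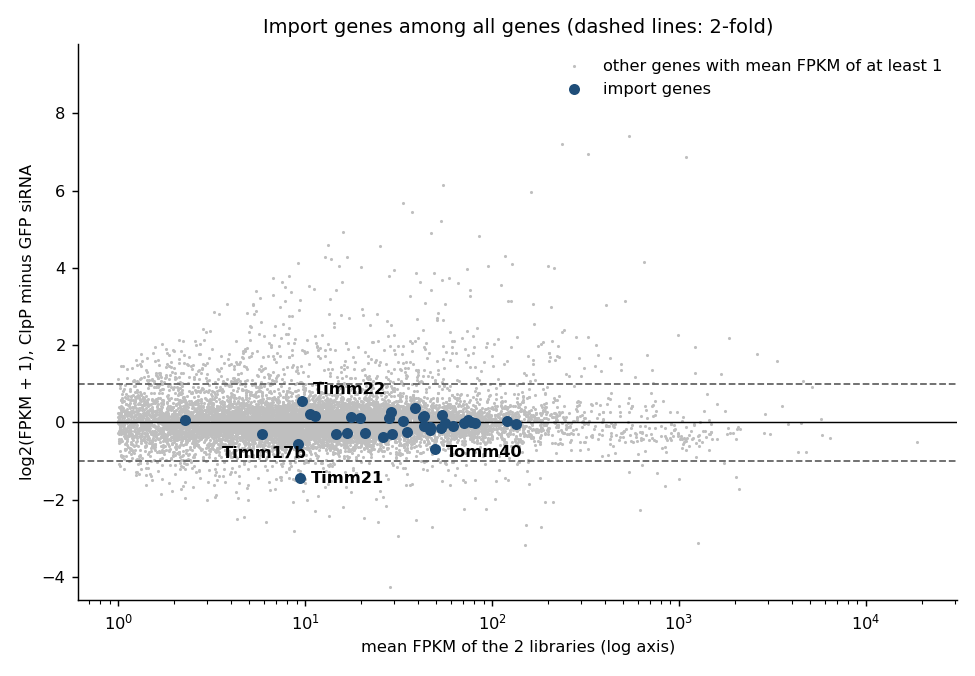
Log2 ratio (ClpP siRNA minus GFP siRNA) against mean FPKM on a log axis for genes with a mean of at least 1 FPKM, with the 35 import genes in blue and dashed lines at 2-fold. The import genes lie in the dense middle band, Timm21 below it at -1.43.

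The spread of log2 ratios among the members (SD 0.35 over 35 genes) was smaller than among 9228 other genes in the same range of mean FPKM (0.59), 15.1% of which were past 1.5-fold. The 16th and 84th percentiles lay closer, at -0.30 and 0.17 for the members and -0.35 and 0.38 for those genes. Levels were not matched within the range: the median under GFP siRNA was 33.5 FPKM for the members and 12.5 for those genes. Other nuclear genes for mitochondrial complexes were similar or tighter. Mitochondrial ribosomal proteins had an SD of 0.26 over 75 genes with 4 past 1.5-fold, and respiratory chain subunits 0.21 over 76 genes with 0 past 1.5-fold. Neither group had a member past 2-fold, beside 7.22% of all genes. Timm21, at -1.43, lay beyond the lowest of each group (-0.61 and -0.56). These SDs are over genes, not replicates.

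Genes that work beside the translocases were read from lists written for the purpose. Past 2-fold in either direction were 7.22% of all genes, so a count of 0 is near that share for lists this short. Of 14 other import factors 0 were past 2-fold (median -0.04), with Cox18, an inner membrane insertase, at 10.6 FPKM under GFP siRNA and 19.5 under ClpP siRNA (log2 ratio 0.83) and Agk next in size. Of 9 cytosolic chaperones and cochaperones that can deliver precursors 0 were past 2-fold (median 0.07). Ttc1 had 29.5 and 44.6 FPKM (0.58), and Stip1, which links the chaperones Hsp70 and Hsp90, had 88.1 and 119 (0.43). Matrix folding chaperones (4 genes, median -0.15) had 0 past 2-fold, the largest being Trap1 (0.29) and Hspd1 (-0.23). Of 10 genes of the MICOS cristae complex and related organisers 0 were past 2-fold (median -0.07), with Apoo at -0.51 and Phb2 at -0.30.

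The surveillance list, of factors that watch over import and respond when it fails, had 8 of 9 genes below 0, 88.9% beside 50.7% of all genes, and a median of -0.24. The list is short and was written with earlier results of these data known, and 7 of its 9 genes lay inside their local spread. Past 2-fold was 1 gene, 11.1% of the list beside 7.22% of all genes. It was Atf5, a transcription factor whose worm counterpart ATFS-1 is kept out of the nucleus while import works, at 238 FPKM under GFP siRNA and 78.2 under ClpP siRNA (-1.59). Next was Atad1, which extracts mislocalized proteins from the outer membrane, at 27.9 and 19.0 FPKM (-0.53). Pink1, a kinase that accumulates on mitochondria when import stalls, had 57.1 and 46.8 FPKM (-0.28), and the protease Yme1l1 26.2 and 20.6 (-0.33). Atad1, Pink1 and Yme1l1 were named after their values were seen.

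The kit used does not keep strand, so reads of overlapping genes on opposite strands cannot be told apart. In GENCODE M21, 15 members share exonic bases with a gene on the other strand, and for 9 of them that partner had a row. Tomm70a shares such bases with Nit2, which had a log2 ratio of -0.26 like its own (28.4 and 23.5 FPKM). Of the other partners with a row, only Glis2 (-0.91) had the sign of its member, Pam16 (-0.09). Opposite in sign were Inpp5e (-0.19) to Pmpca, Nfs1 (0.15) to Romo1, Arfip2 (-0.61) to Timm10b and Thbs3 (-0.08) to Mtx1. So were Tmprss9 (-0.06) to Timm13, Usp49 (0.42) to Tomm6, Prickle4 (-0.10) to Tomm6os, and Tomm6 and Tomm6os to each other. Tomm40 and Timm17b overlap Gm20512 and Gm10491, and Tomm40l overlaps Nr1i3. Mipep, Timm8b and Timm9 overlap Mipepos, Nkapd1 and Tomm20l. None of these partners was analysed here, so the levels of these members are uncertain, as are those of members whose partner had a row. A further overlap, with a gene on the same strand, was found for 5 members: Samm50, Timm10b, Timm23, Tomm6 and Tomm6os. Timm21, Timm22 and Tomm20 overlap no gene on the other strand. Near copies, stretches of at least 200 bases with 95% identity at another locus on either strand, were found for 8 members, most often for Timm23 (6 other genes) and Tomm20 (4). Of these copies only that of Gfer, a stretch of Dst, lies in a gene with a row (14.7 and 12.2 FPKM), and how the authors assigned such reads is not given in the sources used here. Timm21, Tomm40, Timm17b and Timm22 had none.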

How the data were processed

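Poly-A RNA of 2 libraries was sequenced after TruSeq RNA v2 preparation, per the labels' protocols. FPKM values in the deposited table were computed by the authors, per the file headers. STAR 2.4.0f1, Cufflinks 2.2.1, Bowtie2 2.2.3, TopHat2 2.0.13, Trimmomatic 0.32 and FastQC 0.10.0 are named, with no role or order, per the submitters' processing notes; the genome build is not given in the sources used here. The log2 columns deposited by the authors equal log2(FPKM + 1) after quantile normalization, to within 0.001. The fold change column deposited by the authors was treated as a score, being negative where the quantile-normalized value was lower under ClpP siRNA; it is negative for Timm23, Pmpca and Timm8b, whose FPKM was higher. A further deposited score column was not used. The ClpP siRNA column was identified by its abbreviated header alone.

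The 7 rows of 14346 that name no gene (0.0475% and 0.0335% of FPKM) were left out. No row was 0 in either library, so genes at 0 were not analysed here. Depth is unknown, so no counting interval is given. The added 1 in log2(FPKM + 1) understates changes of scarce genes. With 1 library per group only sizes are described (1.5-fold and 2-fold). Members and lists were chosen with earlier results of these data known, and the motifs after values were seen. All members are named; from each other list, genes past 2-fold or else the 2 largest, and any other gene is there as a marker, a partner of a member or as stated beside it; 1 gene of a comparison list is not reported here and was left out of that list. The ratio and size rule were run on simulated data without scatter, which checks the code and not the noise between libraries. Python 3.11.15, pandas 2.3.3 and blastn 2.17.0 were used, with GENCODE M21 for overlaps and copies. Alternatives were pseudocounts of 0.1 and 5, no filter or one at 5 FPKM, and 4 other scalings.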

Additional observations from a re-analysis of the deposited data

How the results depend on the processing

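No paired analysis was possible because each group had 1 library. With a pseudocount of 5 in place of 1, 0 members were past 2-fold lower (Timm21 at -0.99), and over all genes 677 were higher and 328 lower past 1.5-fold, and 327 higher and 89 lower past 2-fold, from 1105, 753, 575 and 226. With a pseudocount of 0.1, 1 member was past 1.5-fold higher (Timm22), and 357 genes were past 2-fold lower. A filter at 5 FPKM left 476 genes past 1.5-fold lower and 142 past 2-fold lower, because fewer genes were kept (8193). These shifts follow from the setting itself, since a larger pseudocount shrinks the ratios of scarce genes. The other 159 recomputed counts, medians and Clpp values stayed within 1.5 times the count or on the same side of 1.5-fold. Over all 9 settings 19 members were lower throughout, 12 were higher throughout (Tomm6os in the 8 that kept it, as the filter at 5 FPKM dropped it) and 4 (Pmpca, Timm13, Timm23, Timm8b) changed sign near 0. Timm17b passed 1.5-fold with a pseudocount of 0.1 (-0.61), after division by the library total (-0.59) and after upper quartile scaling (-0.62). The median of all genes shifted by at most 0.07 under another scaling. The unknown depth and the lack of replicates limit every value, most for scarce genes such as Timm21, Timm17b and Timm22.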

Other observations

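Timm29, a TIM22 subunit, is listed under its older symbol 1810026J23Rik and so falls outside the naming rule; it was looked up after the other values were seen. It had 14.3 FPKM in both libraries, a log2 ratio of 0.00. With it, the TIM22 genes read here span log2 ratios from -0.44 (Agk) to 0.56 (Timm22).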
